A study of Arabidopsis thaliana with 6 samples.

Results

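Late embryogenesis abundant (LEA) proteins were followed here as the probe sets of an Affymetrix ATH1 array whose deposited title names a LEA protein or LEA domain, together with the 2 Em-like genes EM1 and EM6. Genes RAB18 and COR15 were left out. This gave 39 of 22746 probe sets, of which 37 were found by their titles and 2 by their symbols. No 2 of them shared a gene name, and 33 had a locus in the annotation used here. The arrays held total RNA of Arabidopsis thaliana seeds carrying anac089-2 (3 arrays) and of wild-type Columbia-0 seeds, the background of the mutant (3 arrays). Seeds of both groups were kept in water at 4 °C in darkness for 3 days and then moved to light at 22 °C with 5 µM abscisic acid (ABA) for 3 h, and no ABA-free seeds were analysed here. The labels name the allele and do not describe the lesion, and the mutated gene, ANAC089, which encodes a NAC-family transcription factor, was not analysed here.

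LEA proteins are mostly small, very hydrophilic proteins that accumulate in the embryo late in seed maturation and protect cell contents during drying. Several sequence families carry the name. Many of their genes are switched on by ABA through bZIP transcription factors such as ABI5, together with the B3-domain regulator ABI3, and their transcripts decline as a seed loses desiccation tolerance during germination. The comparison below asks which LEA transcripts were higher or lower in the mutant under ABA. All values are log2 expression values, differences are anac089-2 minus wild type, and a difference passed where the adjusted p (limma, Benjamini-Hochberg over all 22746 probe sets) was under 0.05. Seeds were measured whole, so fewer cells with a transcript and less of it per cell cannot be told apart.

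The samples were those of seeds by their storage transcripts. The seed albumin gene SESA3 ran at 12.47 to 12.59 on the anac089-2 arrays and 12.59 to 13.00 on the wild-type arrays, and the cruciferin gene CRA1 at 13.56 to 13.68 and 13.55 to 13.70. These 2 did not pass. The other 3 measured storage genes, SESA1, SESA2 and SESA4, fell in anac089-2 (-0.77, -0.92 and -1.30), so the storage transcripts were not alike in both groups. The measured genes listed for endosperm were FIS2, FWA, MEA and CUC2 (4 of 6 listed). With those listed for seed coat (3 of 5) and green seedlings (2 of 9), they had wild-type means of at most 4.22. These values do not tell whether the tissues were present. With limma 0 of these 9 passed and 0 had an unadjusted p under 0.05, against 11.2% of all probe sets under 6. Array medians were 4.00 to 4.01 in anac089-2 and 3.97, 3.98 and 3.80 in wild type, the last on replicate 3. That array correlated least with its own group (mean r = 0.982, against 0.987 to 0.996 on the other 5), and its LEA values were the highest of the 6 arrays for 15 of the 23 LEA probe sets with a wild-type mean of 6 and above. The cold- and drought-induced dehydrin genes ERD10 and COR47 were also at 5.20 and 4.93 on that array, against 3.10 to 3.55 for both on the 5 others. Other measured dehydrin genes did not stand apart there. ERD14 was at 3.95 (3.23 to 3.86 on the 5 others), HIRD11 at 5.97 (4.68 to 5.87) and XERO2 at 12.46 (11.68 to 12.49). The LEA counts and the differences of the 11 LEA probe sets that passed are therefore also given without it.

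LEA probe sets fell into separate ranges of signal. In wild type, 19 had a mean of 10 or above (10.71 to 13.96), 4 lay between 7.55 and 9.85, and 16 were under 6, all of them at 2.71 to 4.20 and so close to or below the array medians. In anac089-2 the same 16 lay between 2.63 and 4.18. Signals of different probe sets are not amounts of RNA and are not ranked here. Title and range went together in part. All 8 probe sets titled LEA-related were in the low range, as were 4 of 11 titled LEA domain, 2 of 8 titled putative LEA protein, 1 of 2 titled LEA3 family and the 1 titled LEA family protein. Both Em-like genes, all 3 titled LEA group 1 domain and all 4 known by their own gene names (ECP63, ECP31, M10 and M17) were at 10 or above.

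**Figure D1:**
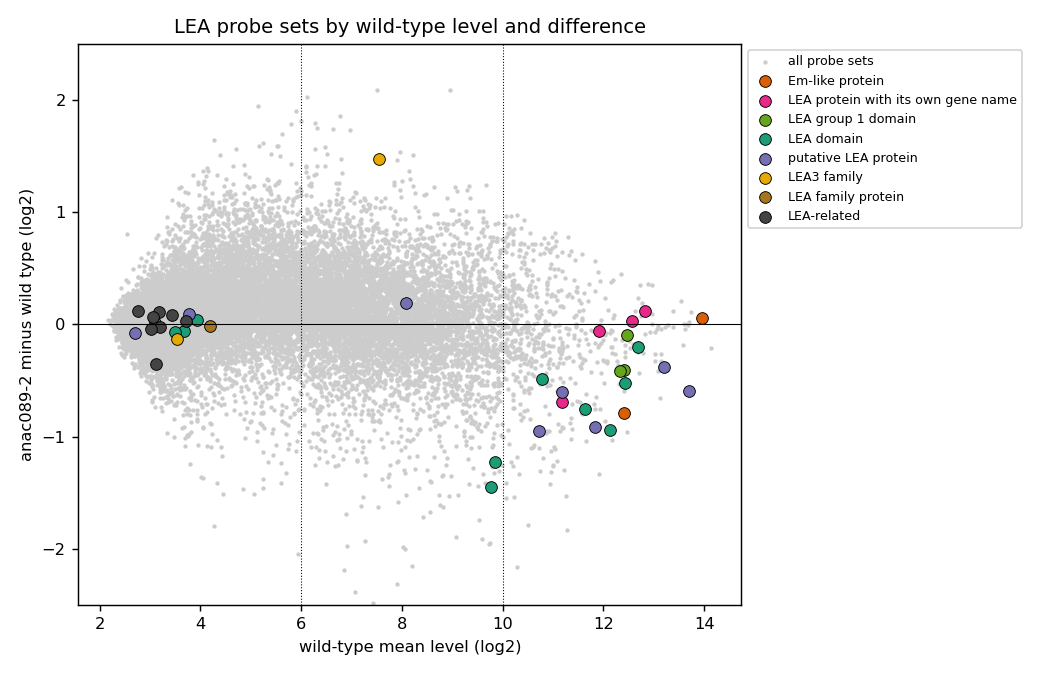
Wild-type mean level (x axis, log2) against the difference anac089-2 minus wild type (y axis, log2) for each probe set, with all probe sets in grey, the LEA probe sets coloured by the type in their title, and dotted lines at levels 6 and 10. The 16 low LEA probe sets sit near 0, most of those above 10 lie below 0, and 1 LEA3 family probe set stands at 1.47; 5 grey points fall outside the y axis.

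Of the 39 LEA probe sets, 10 fell and 1 rose in anac089-2, and 28 did not pass. Over all 22746 probe sets 1.98% fell and 2.94% rose. At wild-type levels of 10 and above 8 of 19 LEA probe sets fell (42.1%) and 0 rose, where 14.2% of all 605 probe sets of that range fell and 10.9% rose. At 6 to under 10, 2 of 4 fell and 1 rose, against 5.43% and 6.15% of 6004. In the low range 0 of 16 passed with limma, 0 had an unadjusted p under 0.05, and differences ran from -0.36 to 0.12. Of all 16137 probe sets of that range 0.242% fell, 1.45% rose and 11.2% had an unadjusted p under 0.05. The median difference of the 23 LEA probe sets at 6 and above was -0.48, against 0.07 for all 6609 probe sets of those levels. At 10 and above the medians were -0.48 for LEA probe sets and -0.08 for all. Of the 19 LEA probe sets there, 16 had negative differences (84.2%), as did 59.8% of the 605, and for 14 every anac089-2 array lay below every wild-type array, which held for 37.0% of the 605. Over all 39 the groups did not overlap for 16 that were lower and 3 that were higher in anac089-2, against 8.23% and 15.8% of all probe sets.

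The decrease had a limited size. The 10 that fell were 1.40-fold to 2.73-fold lower in anac089-2, with a median difference of -0.85 and adjusted p-values between 0.0136 and 0.04996. Array by array, the median of the 23 LEA values was 11.59, 11.78 and 11.50 in anac089-2, against 11.91, 12.09 and 12.37 in wild type. These medians are the values of EM1 in anac089-2 and of AT4G21020 in wild type, both among the 10 that fell. The means of the 23 were 11.13, 11.29 and 11.23 in anac089-2, against 11.57, 11.57 and 11.76 in wild type. Neither measure overlapped between the groups, and both restate the same values as the calls. Over all 6609 probe sets at these levels the array medians were 7.72 to 7.76 in anac089-2 and 7.5 to 7.73 in wild type. Without wild-type replicate 3, 10 LEA probe sets fell and 1 rose, 10 of these 11 being the same as with all arrays. In that fit 3.33% of all probe sets fell and 4.00% rose. AT3G22490 lost its call (limma adjusted p = 0.0674) and AT4G36600 gained one (0.0438), and the median difference of the 23 was -0.41. Calls depended on the other arrays: without anac089-2 replicate 1 or without replicate 3, limma passed 0 LEA probe sets, with 15 at an unadjusted p under 0.05 in each case. Those fits passed 6 and 4 of all 22746 probe sets. In those fits 12.7% and 13.8% of all probe sets had an unadjusted p under 0.05. Without anac089-2 replicate 2 it passed 3, and without wild-type replicates 1 and 2 it passed 3 and 2, where it passed 470, 521 and 301 of all probe sets. All 11 kept their direction whichever array was left out, an outcome fixed in advance because their groups did not overlap.

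Em-like proteins are glycine-rich, strongly hydrophilic LEA proteins named after wheat Em, and EM1 and EM6 are known targets of ABI5. EM1 (AT3G51810) had 11.59, 11.78 and 11.50 on the anac089-2 arrays, against 12.30, 12.28 and 12.67 on the wild-type arrays. Every anac089-2 value was below every wild-type value, and EM1 fell by 0.79 on the log2 scale (SE 0.141, limma adjusted p = 0.0262), 1.73-fold lower. Without wild-type replicate 3 its difference was -0.67 (limma adjusted p = 0.0206). EM6 (AT2G40170), whose loss makes Arabidopsis seeds dry too early, had 14.0, 14.06 and 13.99 in anac089-2 and 13.94, 13.98 and 13.97 in wild type. It did not pass (0.05, 95% interval -0.15 to 0.26, limma adjusted p = 0.798). EM6 gave the highest value of any tested probe set on each anac089-2 array, and highest values in wild type were 14.09 to 14.2, so it sits at the upper end of the signal range.

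**Figure D2:**
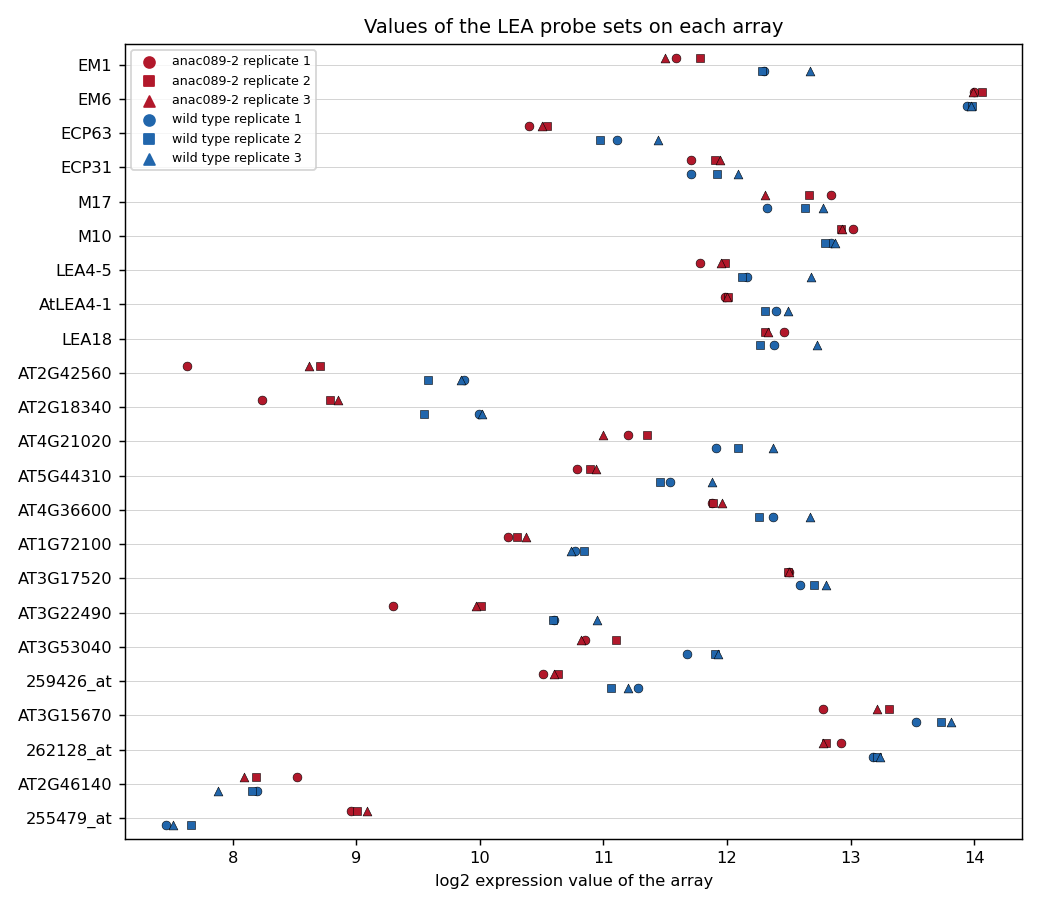
Log2 expression value (x axis) of each LEA probe set with a wild-type mean of 6 and above on each of the 6 arrays, with anac089-2 in red above wild type in blue and replicates 1 to 3 as circles, squares and triangles. Red points lie left of all blue points for 16 of the 23 probe sets and right of them for 3 (EM6, M10 and 255479_at).

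Among LEA proteins that carry names of their own, ECP63 and ECP31 are called after embryogenic cell proteins of carrot. ECP63 (AT2G36640) had 10.40, 10.54 and 10.50 in anac089-2, against 11.11, 10.97 and 11.44 in wild type. It fell by 0.69 (SE 0.138, limma adjusted p = 0.0354), and the groups did not overlap. Without wild-type replicate 3 the difference was -0.56 (limma adjusted p = 0.0228). ECP31 had 11.71, 11.90 and 11.94 in anac089-2 and 11.71, 11.92 and 12.09 in wild type, overlapping groups with a difference of -0.06 (95% interval -0.36 to 0.25, limma adjusted p = 0.858), and without wild-type replicate 3 the sign turned (0.04). M10 (AT2G41280) and M17 (AT2G41260), whose transcripts are known from late seed maturation, are neighbours on the chromosome with 0 protein-coding genes between them. M10 had 13.02, 12.92 and 12.93 in anac089-2 and 12.84, 12.79 and 12.87 in wild type (0.12, 95% interval -0.09 to 0.33, limma adjusted p = 0.523). M17, titled a glycine-rich protein, had 12.84, 12.66 and 12.31 in anac089-2 and 12.32, 12.63 and 12.78 in wild type (0.03, 95% interval -0.38 to 0.44). Neither passed. ECP31 and M17 were singled out after their values were seen.

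The 3 genes titled LEA group 1 domain form one family of LEA proteins that build up in dry seeds and in plants short of water; LEA4-5 is known to protect enzymes during drying in the test tube. None of the 3 passed with limma, while 2 had an unadjusted p under 0.05. All 3 had wild-type means of 12 and above, where 42.3% of all 97 probe sets had such a p. LEA4-5 (AT5G06760) had 11.78, 11.98 and 11.95 in anac089-2, against 12.16, 12.12 and 12.68 in wild type, without overlap (-0.42, SE 0.165, limma adjusted p = 0.226). Its highest value was that of wild-type replicate 3, and without that array the difference was -0.24 (limma adjusted p = 0.230). LEA18 (AT2G35300) had 12.46, 12.31 and 12.33 in anac089-2 and 12.38, 12.27 and 12.73 in wild type (-0.09, 95% interval -0.42 to 0.23, limma adjusted p = 0.774), and without wild-type replicate 3 the sign turned (0.04). The remaining one, AtLEA4-1, had a difference of -0.40 (limma adjusted p = 0.0570), with values of 11.98 to 12.01 in anac089-2 and 12.31 to 12.49 in wild type.

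Probe sets titled LEA domain held the 2 largest decreases among the LEA probe sets. Of 7 at a level of 6 and above 5 fell, all 7 had negative differences, and in all 7 the groups did not overlap. Over all 6609 probe sets at these levels 6.23% fell, 42.3% had negative differences and 18.4% were lower without overlap. Of the 7, 5 lay at 10 and above, and 3 of these fell. Over all 605 probe sets of that range the same shares were higher, at 14.2%, 59.8% and 37.0%. AT2G42560 had 7.63, 8.71 and 8.62 in anac089-2, against 9.87, 9.58 and 9.85 in wild type, and fell by 1.45 (SE 0.280, limma adjusted p = 0.0333), 2.73-fold lower. anac089-2 replicate 1 was lowest there, and without it the difference was -1.10 (limma adjusted p = 0.0670). AT2G18340 had 8.24, 8.79 and 8.85 in anac089-2, against 9.99, 9.55 and 10.02 in wild type, and fell by 1.23 (SE 0.202, limma adjusted p = 0.0214), 2.34-fold lower. Both lay in the middle range of signal, and without wild-type replicate 3 they had -1.41 and -1.14 and passed.

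AT4G21020 had 11.20, 11.35 and 11.00 in anac089-2, against 11.91, 12.09 and 12.37 in wild type, and fell by 0.94 (SE 0.151, limma adjusted p = 0.0205). AT5G44310 had 10.79, 10.89 and 10.94 in anac089-2, against 11.54, 11.46 and 11.88 in wild type, and fell by 0.75 (SE 0.132, limma adjusted p = 0.0254). In both the groups did not overlap, and without wild-type replicate 3 the differences were -0.82 and -0.63, both past the threshold. AT1G72100 showed the smallest decrease that passed, with 10.23, 10.30 and 10.37 in anac089-2, against 10.77, 10.84 and 10.74 in wild type (-0.48, SE 0.0930, limma adjusted p = 0.0329). Its replicate SDs were 0.07 in anac089-2 and 0.0513 in wild type, and without wild-type replicate 3 it passed at -0.51 (limma adjusted p = 0.0256). AT3G17520 had 12.50, 12.49 and 12.50 in anac089-2, against 12.59, 12.70 and 12.80 in wild type, and did not pass (-0.20, limma adjusted p = 0.320). AT4G36600 had a difference of -0.52 (limma adjusted p = 0.0630). The 4 low members of this type had differences of -0.07 to 0.04.

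**Figure D3:**
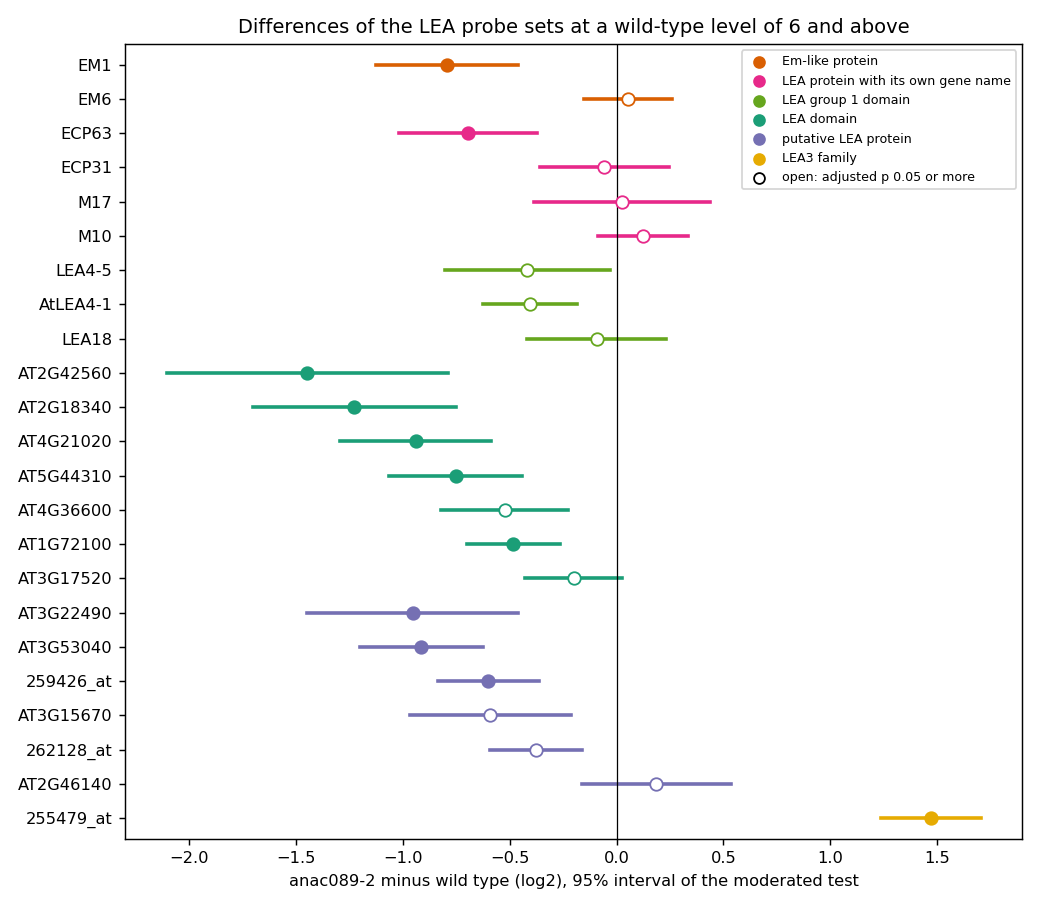
Difference anac089-2 minus wild type (x axis, log2) with its 95% interval from the moderated test for the 23 LEA probe sets at a wild-type mean of 6 and above, grouped and coloured by title type, with filled points at an adjusted p under 0.05. LEA domain and putative LEA probe sets lie mostly left of 0, from -1.45 upward, while EM6, ECP31, M17, M10, LEA18, AT3G17520 and AT2G46140 have intervals that include 0.

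Of 8 probe sets titled putative LEA protein 3 fell, and each of the 5 at 10 and above had every anac089-2 value below every wild-type value, for all probe sets of those levels a share of 37.0%. All 3 that fell were among these 5, where 14.2% of all fell. AT3G53040 had 10.85, 11.10 and 10.82 in anac089-2, against 11.68, 11.90 and 11.93 in wild type. It fell by 0.91 (SE 0.123), with the lowest adjusted p of the decreases (limma, 0.0136). AT3G22490 had 9.30, 10.01 and 9.97 in anac089-2, against 10.60, 10.59 and 10.95 in wild type, a decrease of 0.95 (SE 0.210) that just passed (limma adjusted p = 0.04996). It lost its call whichever array was left out, and in the authors' deposited table its FDR was 0.0508. Probe set 259426_at, which no source used here gives a gene, had 10.51, 10.63 and 10.60 in anac089-2, against 11.28, 11.06 and 11.20 in wild type, and fell by 0.60 (SE 0.101, limma adjusted p = 0.0229). Without wild-type replicate 3 the 3 differences were -0.87, -0.84 and -0.59, of which that of AT3G22490 did not pass.

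AT3G15670 had 12.78, 13.31 and 13.21 in anac089-2, against 13.53, 13.73 and 13.81 in wild type (-0.59, limma adjusted p = 0.0892). Probe set 262128_at, also without a gene name, had a difference of -0.38 (limma adjusted p = 0.0655). Neither passed, although their groups did not overlap. AT2G46140, which belongs to the atypical, more hydrophobic LEA proteins, lay in the middle range. It had 8.52, 8.19 and 8.09 in anac089-2 and 8.20, 8.16 and 7.88 in wild type (0.19, limma adjusted p = 0.561), and was singled out after its values were seen. The 2 low members were AT3G50790 (0.10) and AT2G33690 (-0.08).

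The LEA3 family is a group of small proteins that includes mitochondrial members induced by stress. It was represented by 2 probe sets, neither with a gene name in the sources used here. Probe set 255479_at had 8.96, 9.01 and 9.09 in anac089-2, against 7.46, 7.66 and 7.52 in wild type. It rose by 1.47 (SE 0.0999, limma adjusted p = 0.00589), 2.78-fold higher, the lowest adjusted p of all LEA probe sets and the 1 increase among them. All 3 anac089-2 arrays were above all 3 wild-type arrays. It passed without each of the 3 wild-type arrays (1.46 without replicate 3) and without anac089-2 replicate 2, and had an adjusted p of 0.0552 without replicate 1 and 0.0557 without replicate 3 (limma). The other LEA3 family probe set, 262113_at, was in the low range, with 3.26 to 3.54 in anac089-2 and 3.40 to 3.65 in wild type (-0.13).

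**Figure D4:**
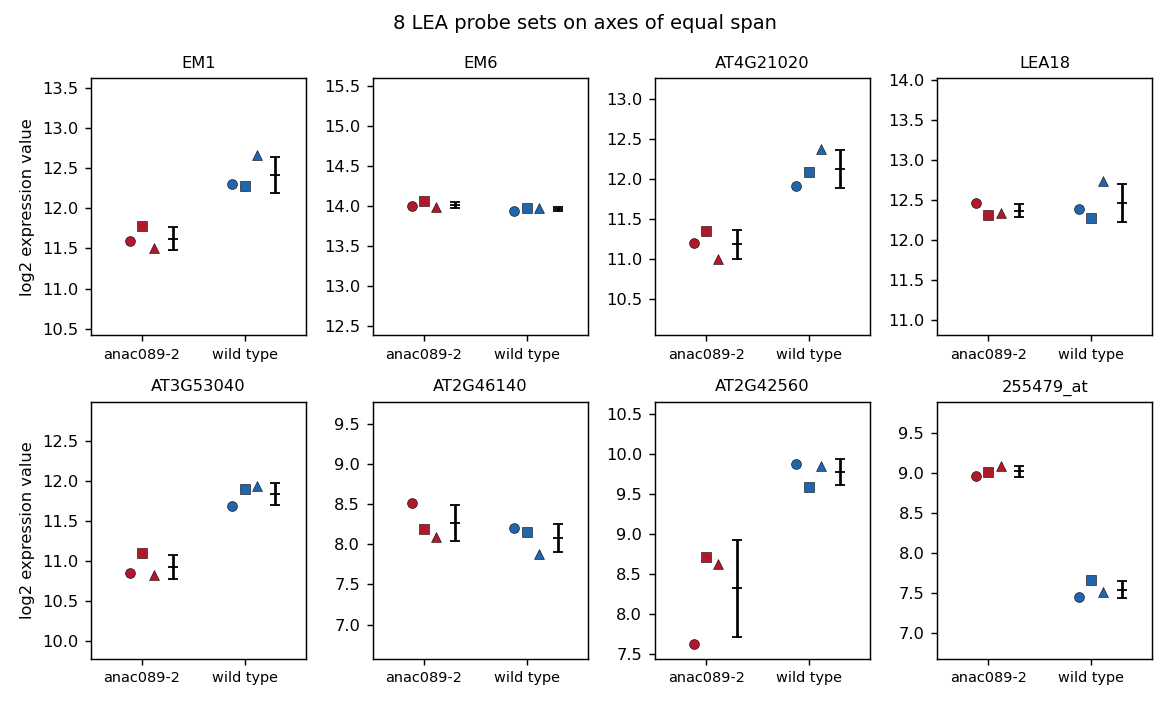
Log2 expression values (y axis, equal span in every panel) of 8 LEA probe sets, with anac089-2 left in red and wild type right in blue, replicates 1 to 3 as circles, squares and triangles, and mean ± SD in black (n = 3). EM1, AT4G21020, AT3G53040 and AT2G42560 were lower in anac089-2 and 255479_at higher, while EM6, LEA18 and AT2G46140 did not pass.

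The remaining probe sets had low signal. All 8 titled LEA-related had wild-type means of 2.77 to 3.71 and differences of -0.36 to 0.12, and in all 8 the groups overlapped, as in 84.4% of all probe sets under 6. AT5G60520 had 3.88, 3.64 and 3.69 in anac089-2 and 3.69, 3.69 and 3.75 in wild type (0.03), and its chromosomal neighbour AT5G60530 had a difference of -0.04. AT3G53770 had 2.72, 2.82 and 2.75 in anac089-2 and 2.75, 2.77 and 3.84 in wild type, with a difference of -0.36 that was 0.0033 without wild-type replicate 3. AT5G54370 had the largest positive value of the low range (0.12, limma adjusted p = 0.712). AT2G44060, titled LEA family protein, had 4.40, 4.09 and 4.06 in anac089-2 and 4.18, 4.45 and 3.96 in wild type (-0.01). Background signal was not analysed here.

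Within the high range, calls were also counted on either side of a level of 12. Of 7 LEA probe sets at 10 to under 12 in wild type 6 fell, ECP31 being the exception, against 15.2% of all 508 probe sets of that range. Of 12 at 12 and above 2 fell (EM1 and AT4G21020), against 9.28% of 97, and 8 had groups that did not overlap with anac089-2 lower, against 45.4% of 97. This limit of 12 was chosen after the values were seen. Across the 23 probe sets at 6 and above the rank correlation of the difference with the mean over 6 arrays was 0.35, across probe sets that share the same 6 arrays. The replicate SDs of the 23 had a median of 0.0814 in anac089-2 and 0.174 in wild type, against 0.119 and 0.180 over all 6609, and the wild-type SD was the larger for 12 of the 23.

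Other genes of desiccation protection and of its control were counted beside the LEA probe sets. Dehydrins form a separate LEA family whose titles do not use the words of the rule. Of 5 measured here, of 7 names listed, 1 fell and 4 did not pass: XERO2, also called LTI30, had 11.68, 11.89 and 11.89 in anac089-2, against 12.49, 12.28 and 12.46 in wild type (-0.59, SE 0.111, limma adjusted p = 0.0306). At its level of 12 and above 9.28% of all probe sets fell. The other 4, ERD10, ERD14, COR47 and HIRD11, had wild-type means of 3.70 to 5.27. Of 12 measured regulators of maturation genes, of 28 names listed, 0 passed with limma and 3 had an unadjusted p under 0.05, all with positive values. That is 25.0% of them, against 19.3% of all probe sets. These 3, ABI3, ABI4 and EEL, had wild-type means of 6 to under 10, where 37.66% of all probe sets had such a p. ABI3 had 9.27, 9.11 and 9.43 in anac089-2, against 8.51, 8.88 and 8.91 in wild type (0.50, limma adjusted p = 0.106). ABI4 had 0.72 (limma adjusted p = 0.0622) and EEL, a bZIP factor that binds the EM1 promoter, 0.39 (limma adjusted p = 0.0813). For 4 of the 12, these 3 and the bZIP gene ABF4, every anac089-2 value was above every wild-type value, against 15.8% of all probe sets. At 6 to under 10 that held for 1559 of 6004 probe sets, and under 6, where ABF4 lies, for 1869 of 16137. ABI5 was not measured under a name found here. Of 2 measured protectants of other kinds, of 13 listed, 0 passed with limma and 1, the chaperone HSP101 (-0.29), had an unadjusted p under 0.05, while the seed peroxiredoxin PER1 had -0.01. At their levels of 10 and above 53.55% of all probe sets had an unadjusted p under 0.05. Of 5 measured storage protein genes, of 12 names listed, 3 fell: the seed albumin genes SESA1 (-0.77), SESA2 (-0.92) and SESA4 (-1.30), whereas CRA1 (0.01) and SESA3 (-0.25) did not pass. Of all probe sets 14.2% fell at levels of 10 and above, and 5.43% at 6 to under 10, where SESA2 lies.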

How the data were processed

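Total RNA of the 6 seed samples was labelled with biotin and hybridised to 1 array each, per the labels' protocols. Values deposited by the authors are on a log2 scale, 1 per probe set and array, and come from RMA (robust multi-array averaging) according to the submitters' processing notes; limma is named there too, without versions or settings. Their comparison table, deposited with log2 ratios, holds p-values and FDR from limma, per the file headers. In it, 5 cells without a decimal point were read as 1, and 6 columns of per-array values were not used. Titles came from the same table, gene symbols and loci from the platform annotation and RefSeq (TAIR10.1), with 3 loci found through a title symbol.

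All 22746 probe sets other than 64 controls were fitted with limma 3.58.1 in R 4.3.3 (lmFit, eBayes, 2 groups, no block, 6 arrays). Members, lists and the rule for named genes were chosen with earlier results of these data known. The rule names EM1, EM6, ECP63, every LEA probe set that passed, and the extremes by title type and level range; levels were divided at 6 and 10. Precision is limited by the number of arrays. P-values measure the spread between 3 samples per group, labelled biological replicates. The procedure was also run on simulated data, and no outcome of that run is given here. No sequences were used here. Alternatives were further normalizations, a filter on dim probe sets, other estimates of the spread, a replicate block, the authors' statistics, other level limits, 1 value per gene, leaving out cross-hybridising probe set types, and leaving out each array. Plots were drawn with matplotlib 3.10.9.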

Additional observations from a re-analysis of the deposited data

How the results depend on the processing

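Of 15 alternatives that could change the count of 11 LEA probe sets past the threshold (10 lower, 1 higher), 9 gave 10 to 15, the last with an intensity trend; these include the fit without wild-type replicate 3. Those 9 passed 1095 to 2070 of all probe sets, against 1120 in the main fit. With the replicate block the count was 3 (2 lower, 1 higher), both over all LEA probe sets and over those named. The block fit passed 494 of all 22746 probe sets. The deviations of same-numbered arrays from their group means correlated at -0.090, -0.063 and -0.136. With 3 arrays per group these values cannot decide whether the numbers pair the samples. The cause of the lower count was not tested. With 1 array left out the counts ran from 0 to 11 over all LEA probe sets, from 0 to 10 over those named, and from 0 to 8 for decreases at levels of 10 and above. The fits then have fewer samples, and they passed 4 to 1667 of all probe sets. The median difference of the 23 LEA probe sets at 6 and above stayed between -0.57 and -0.39. Other scalings lowered the median of all probe sets, 0.04, to no less than -0.05. Of 313 values of the 21 named probe sets under alternatives, 58 lost the threshold, 1 gained it (AT3G15670 with an intensity trend) and 0 passed with the direction turned. Taking 1 value per gene and leaving out cross-hybridising types changed nothing, since 0 LEA probe sets shared a gene name or were of such a type. Signal over background was not analysed, so what the 16 dim probe sets could show was not tested.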
